A study of Mus musculus with 6 samples.

Results

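Genes of genome maintenance, chromosome cohesion and the centrosome were taken from the METTL3-RIP table by name: a gene was a member if its symbol began with or equalled one of a set of names, among them Atm, Atr, Prkdc, Brca, Fanc, Rad, Ercc, Parp, Mcm, Top, the DNA polymerase symbols, Smc, Stag, Ncap, Cep, Cenp, Pcnt, Nin, Haus and Tubgcp. The rule used no measured value. It found 55 members among the 2652 genes listed, and each is a protein-coding gene. Some carry a fitting name and another or an additional role, and they were kept: Mcm3ap encodes GANP, which works in mRNA export, Trp53bp2 encodes the apoptosis regulator ASPP2, Rad54l2 encodes a helicase that binds the androgen receptor, and Parp10 and Parp14 encode mono-ADP-ribosyltransferases.

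The study asked which transcripts are bound by METTL3 in natural killer (NK) cells. RNA brought down from a cell lysate by an anti-METTL3 antibody (METTL3-RIP, 3 libraries) was compared with RNA of lysate set aside before the antibody step (input, 3 libraries). Both groups were splenic NK cells of wild-type C57BL/6 mice, and the mice of the study were 6 to 10 weeks old. All had received the pLIVE-IL-15 plasmid by hydrodynamic injection 1 month before the cells were sorted, so both groups hold NK cells amplified in animals that express IL-15 from a plasmid. No precipitation with a control antibody was analysed here, and the labels do not say whether the libraries came from separate animals or pools, so that p-values measure the spread between these libraries. None of 11 NK cell markers is listed, and neither is any of 6 T cell, 5 B cell, 6 myeloid or 3 erythroid markers, so the labelled cell type could not be checked against its markers.

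METTL3 is the catalytic subunit of the writer complex that places N6-methyladenosine (m6A) on mRNA, mostly at an adenosine that follows GG or GA and precedes C, and m6A is known to be dense near stop codons and in long internal exons. Genome maintenance rests on sensor kinases that detect DNA breaks and stalled forks, on the repair pathways they call, and on the replication machinery. Cohesin and condensin hold and fold the sister chromatids, and the centrosome and spindle proteins then separate them. NK cells pass through these processes when they divide in response to IL-15.

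To show what such a site looks like in these genes, a coding GGACN (with any last base but G) is given with 10 bases on either side. It is shown for the member with the highest METTL3-RIP level in each of 7 roles. The motif taken is the nearest to the stop codon whose whole window is coding and within a single exon. The sequences are the sense strand of GENCODE M21 transcripts on GRCm38, written as DNA, and capitals mark the motif.
Mdc1: cgcatccgcaGGACAgtcaagttct
Rad54l2: acccagtgctGGACTtaaggggcca
Parp14: ccccctcgagGGACCctcaaaatgc
Mcm3: aggagacccaGGACTcccagaaagt
Ncapd2: acatcaccaaGGACAaacagactga
Numa1: tgacccccagGGACCggcatgaagg
Cep250: atcccagtctGGACActactcaaaa

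The Mdc1 window lies at chr17:35854522-35854546 on the plus strand in exon 13 of 16, and that of Rad54l2 at chr9:106693359-106693383 on the minus strand in exon 22 of 22, with the motif 465 and 650 bases before the stop codon. The Parp14 window is at chr16:35834755-35834779 on the minus strand in exon 17 of 17, 116 bases before the stop codon. The Mcm3 window is at chr1:20804835-20804859 on the minus strand in exon 16 of 17, and that of Ncapd2 at chr6:125170176-125170200 on the minus strand in exon 28 of 32, at 224 and 605 bases from the stop codon. The Numa1 window is at chr7:102013564-102013588 on the plus strand in exon 23 of 25, at 281 bases. The Cep250 window, at chr2:155998394-155998418 on the plus strand in the last of 33 exons, has its motif 20 bases before the stop codon, the shortest distance of the 7 windows. All 7 windows are coding sequence. Such motifs are common: all 55 members and 97.7% of all protein-coding genes have at least 1 in the sense strand of the representative transcript, so a match describes the sequence and does not mark a bound or methylated site.

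Levels are RPKM, a gene's reads per kilobase of its exons, scaled to the library total, and therefore compare genes per length. In METTL3-RIP, the members ran from 0.430 RPKM (Fancc) to 93.2 RPKM (Numa1), with a median of 4.56 RPKM against 3.04 RPKM over all listed genes, and 35 of 55 lay above the latter. In bulk RNA such as this, a low level in METTL3-RIP can mean few cells with the transcript or little of it per cell. It can also mean that little of the transcript was brought down by the antibody. From this level alone, these cannot be told apart. Only genes with a higher value in METTL3-RIP entered the table, so the direction of each difference was set by that choice and is given as a description. Among listed genes with input reads, the lowest ratio of mean RPKM, METTL3-RIP over input, was 9.14. Small ratios are thus absent from the table, and the gap between the groups in each gene is a description too. With limma on log2(RPKM + 1) over all listed genes, all 55 members were higher in METTL3-RIP past an adjusted p of 0.05, where 99.9% of all listed genes were, and nothing particular to the members follows from this count. On recovered reads with limma voom, all 55 members were called, as were 100% of listed genes. In 55 of 55 members every METTL3-RIP value lay above every input value, as in 99.8% of listed genes. The largest adjusted p of a member, from limma with Benjamini-Hochberg adjustment, was 0.000129 (Cenpt).

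The median log2 fold change of the members was 1.98, and that of all listed genes was 1.72. This scale understates the change of low genes. On the linear scale, the median ratio of mean RPKM in METTL3-RIP over input was 12.5 for the members and 14.4 for listed genes with input reads, and 21 of 55 members lay above the listed median. The order of the medians thus differs between the scales. Among genes with at least 50 input reads over the 3 libraries, the medians were 12.5 for 40 members and 12.3 for 1214 listed genes. With each library centred on the median of the listed genes, which moved their median log2 difference from 1.72 to -0.04, 28 members were higher and 14 lower than input past the threshold, beside 1044 and 1119 of all listed genes. Of the genes named by rule below, Fancc, Cep170b, Fancd2, Atr, Ercc6l2, Cenpt and Top3b fell on the lower side in that setting. Centring takes the same amount from each gene's difference on log2(RPKM + 1), so the side a gene falls on follows its level and does not rank ratios. Cep170b is on the lower side with the largest ratio of the members.

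**Figure D1:**
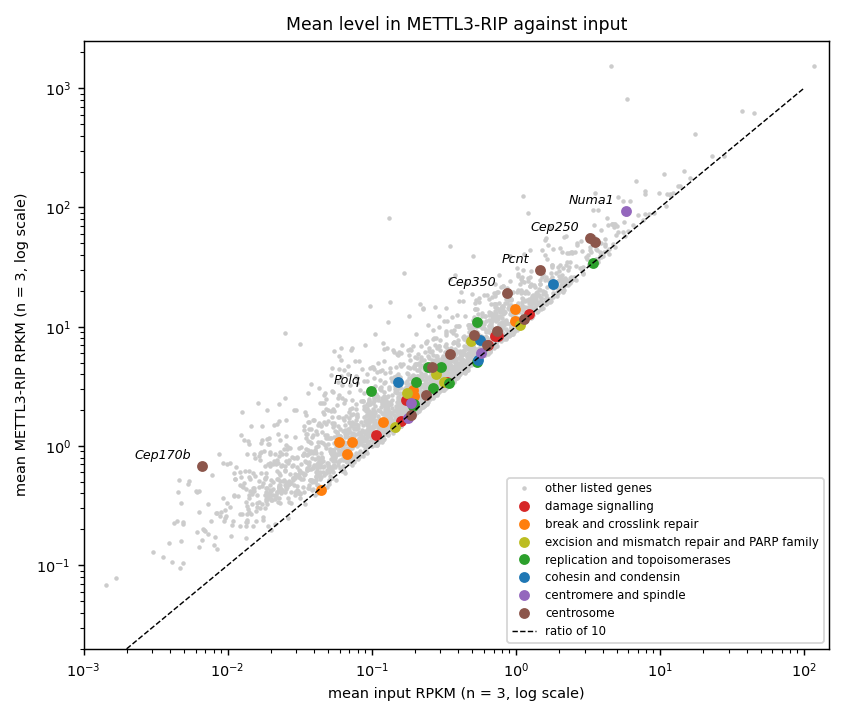
Mean RPKM in METTL3-RIP (y axis, log scale, n = 3) against mean RPKM in input (x axis, log scale, n = 3) for each listed gene with input reads, with members coloured by role and a dashed line at a ratio of 10. Numa1 (93.2 against 5.78 RPKM) is the highest member, and Cep170b (0.677 against 0.00659 RPKM) lies far to the left of the others.

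The centrosome group held the most members, 13, and had the highest median level in METTL3-RIP of the 7 roles, 8.53 RPKM. Cep250, which encodes the linker protein C-Nap1 that ties the centrioles together, measured 54.5, 62.7 and 48.0 RPKM in METTL3-RIP replicates 1, 2 and 3, and 3.79, 3.64 and 2.42 RPKM in input. Nin, for ninein, which anchors microtubules at the mother centriole, measured 51.2, 56.2 and 46.1 RPKM in METTL3-RIP and 4.39, 3.49 and 2.75 RPKM in input. In both genes METTL3-RIP replicate 2 was the highest and replicate 3 the lowest of their group, input replicate 3 was the lowest of the input libraries, and the groups lay far apart. The log2 fold change was 3.72 ± 0.17 (SE) for Cep250 and 3.53 ± 0.16 (SE) for Nin. About 11.1% of the exon length of Cep250 overlaps a gene on the other strand, and whether counting used strand is not stated.

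Pcnt, for pericentrin, the scaffold of the pericentriolar material, had 31.7, 32.5 and 25.6 RPKM in METTL3-RIP and 1.86, 1.59 and 0.949 RPKM in input. Its replicate 3 was the lowest in both groups, without overlap, and the ratio of the means was 20.4. Cep350, a centriolar protein that helps to anchor microtubules, had 19.2, 20.005 and 18.4 RPKM in METTL3-RIP and 0.890, 0.901 and 0.827 RPKM in input. Its libraries were close together within each group, so the lowest METTL3-RIP value was still 20.4 times the highest input value. Akap9, which encodes another pericentriolar scaffold, had 11.9, 11.7 and 11.4 RPKM in METTL3-RIP and 1.13, 1.30 and 0.977 RPKM in input, lower than Cep350 in METTL3-RIP and higher in input without overlap. The Akap9 ratio of the means was 10.3, and its largest ratio over single libraries, 12.2, lay below the smallest for Cep350.

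Of the other centrosome members, Cdk5rap2, Cep152, Cep192, Cep164, Tubgcp6, Tubgcp3 and Cep85l had mean METTL3-RIP levels from 9.18 down to 1.83 RPKM. CDK5RAP2 tethers the γ-tubulin complex to the centrosome, and CEP164 sits on the appendages by which the mother centriole docks to form a cilium. Cep152 and Cep192, which recruit the kinase that starts centriole duplication, had ratios of 16.7 and 11.1, and Tubgcp6 and Tubgcp3, subunits of the γ-tubulin ring complex that nucleates microtubules, had 17.5 and 11.4. Both pairs had overlapping ranges of single-library ratios. Cep170b, which encodes a centrosomal and microtubule protein, stood apart: METTL3-RIP held 24, 24 and 20 reads, and input 1, 0 and 0 reads. Its ratio of pooled reads per library total was 101, with a 95% exact counting interval of 17.6 to 4060 that covers counting error only. The interval takes each read as independent, although read numbers of low genes were more often even than odd, as given below. The reads of Cep170b rest on an inferred length of 3320 nt and could be a multiple of the numbers given. Ratios of the centrosome members other than Cep170b ran from 9.87 to 22.0, and 8 of the 13 lay above the listed median.

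**Figure D2:**
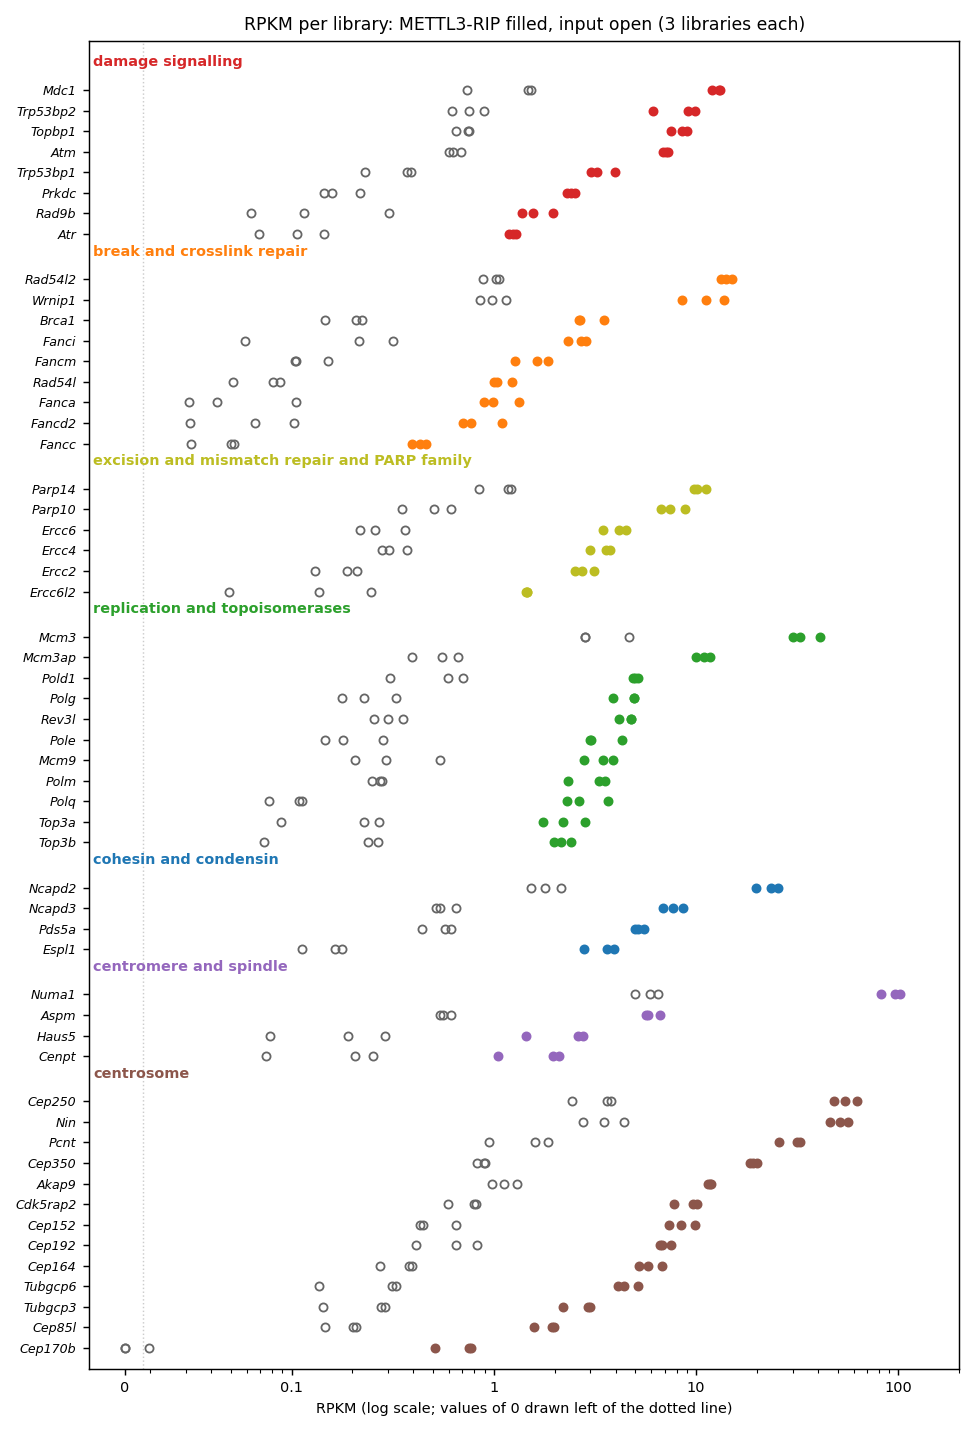
RPKM of each of the 55 members (log scale) in the 3 METTL3-RIP and the 3 input libraries, with members grouped by role, METTL3-RIP as filled and input as open points, and values of 0 drawn left of the dotted line. In every member each METTL3-RIP point lies to the right of each input point, and Cep170b has 0 reads in input replicates 2 and 3.

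Centromere and spindle members numbered 4 and included the highest level of all members. Numa1, which encodes the protein that gathers microtubules at the spindle poles and ranks 30 of 2652 listed genes in METTL3-RIP, had 95.9, 102 and 81.7 RPKM there and 6.47, 5.91 and 4.96 RPKM in input. Replicate 3 was the lowest of both groups and the groups were well separated, with a log2 fold change of 3.80 ± 0.15 (SE), the largest of all members. Aspm, a spindle pole protein whose loss causes small brain size, had 6.63, 5.80 and 5.64 RPKM in METTL3-RIP against 0.612, 0.540 and 0.563 RPKM in input, a ratio of 10.5. Cenpt, which links centromeric chromatin to the outer kinetochore, had 2.10, 1.97 and 1.05 RPKM in METTL3-RIP and 0.252, 0.206 and 0.0746 RPKM in input. Replicate 3 of Cenpt was the lowest in both groups, which did not overlap, and its CV of 33.7% in METTL3-RIP was the largest of all members. Haus5, a subunit of the augmin complex that branches spindle microtubules, had a mean of 2.28 RPKM in METTL3-RIP, but 56.5% of its exon length overlaps another gene on the same strand, so its reads are uncertain.

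Among the 4 cohesin and condensin members, Ncapd2, a subunit of condensin I, had 25.3, 19.7 and 23.3 RPKM in METTL3-RIP against 2.16, 1.79 and 1.53 RPKM in input. Ncapd3, the matching subunit of condensin II, had 8.57, 7.66 and 6.85 RPKM against 0.649, 0.539 and 0.517 RPKM. The level of Ncapd2 was above that of Ncapd3 in each library, whereas the ratios, 12.5 and 13.5, differed by less than their range over single libraries. Espl1, which encodes separase, the protease that opens the cohesin ring, had 3.63, 3.92 and 2.80 RPKM in METTL3-RIP and 0.178, 0.113 and 0.164 RPKM in input. Its ratio of 22.7 was the highest of the 4, and its groups did not overlap. Pds5a, a cohesin regulator, had a ratio of 9.59 at 5.22 RPKM. Of the genes for core ring subunits and their relatives, 0 of 7 annotated Smc genes and 0 of 3 Stag genes are in the table, where 8.68% of all annotated protein-coding genes are, so that counts of 0 in families this small are near the background.

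Replication and topoisomerase genes gave 11 members. Mcm3, a subunit of the replicative helicase, measured 40.9, 32.6 and 30.1 RPKM in METTL3-RIP and 4.66, 2.83 and 2.81 RPKM in input. Replicate 1 was the highest in both groups, and the groups did not overlap. Mcm3ap had 10.9, 11.7 and 9.96 RPKM in METTL3-RIP and 0.556, 0.666 and 0.394 RPKM in input, with replicate 2 the highest in both groups, and its ratio was 20.2 against 10.1 for Mcm3. The ranges over single libraries, 14.96 to 29.7 for Mcm3ap and 6.47 to 14.6 for Mcm3, did not overlap. The length used for Mcm3ap was inferred, which does not alter ratios of RPKM. Mcm9, a helicase paralog of the Mcm family that acts in repair, had 3.37 RPKM and a ratio of 9.74, and 19.2% of its exon length overlaps a gene on the other strand.

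The listed polymerases were Pole and Pold1, the catalytic subunits that copy the leading and the lagging strand, Polg of the mitochondria, Polm of end joining, Polq of theta-mediated end joining and Rev3l of translesion synthesis. Their METTL3-RIP means lay between 2.87 RPKM (Polq) and 5.02 RPKM (Pold1). Polq had 3.68, 2.63 and 2.31 RPKM in METTL3-RIP and 0.108, 0.0775 and 0.112 RPKM in input, a ratio of 28.9 that was the largest of the members after Cep170b. Input of Polq rested on 16, 12 and 16 reads. Pold1, at 5.14, 5.01 and 4.90 RPKM in METTL3-RIP and 0.595, 0.708 and 0.308 RPKM in input, had the smallest ratio, 9.35. The single-library ranges of these 2 polymerases, 20.6 to 47.5 and 6.92 to 16.7, were apart. Both type IA topoisomerases were listed, Top3a at 2.25 RPKM and Top3b at 2.16, 2.41 and 1.99 RPKM in METTL3-RIP against 0.268, 0.240 and 0.0734 RPKM in input, and 0 of 4 Top1 and Top2 genes were listed, in families too small to set against the 8.68% of all protein-coding genes.

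Damage signalling had 8 of its 12 annotated genes in the table, where 25.9% of all genes of the name rule are, and its annotated genes were the longest of the 7 roles by median exon length, 9205 nt against 5742.5 nt for the rule. Mdc1, the scaffold that binds phosphorylated histone H2AX at breaks, had 13.0, 13.2 and 11.9 RPKM in METTL3-RIP and 1.52, 1.47 and 0.733 RPKM in input. Replicate 3 was the lowest in both groups, and input replicate 3 of Mdc1 lay far below the other input libraries. Trp53bp2 had 9.08, 9.87 and 6.15 RPKM in METTL3-RIP against 0.892, 0.623 and 0.754 RPKM in input. Of the 3 apex kinases, Atm had 7.25, 7.12 and 6.83 RPKM in METTL3-RIP, Prkdc 2.30, 2.41 and 2.52 RPKM, and Atr 1.28, 1.19 and 1.24 RPKM. Atm, which responds to breaks, was above Prkdc, the kinase of end joining, and Prkdc above Atr, which responds to stalled forks, in each METTL3-RIP library without overlap. The place of Atr depends on the exon length used, 23629 nt, whereas its representative transcript has 8102 nt. For Prkdc these lengths are 13187 and 12647 nt. METTL3-RIP reads were 285, 270 and 346 for Atr and 285, 306 and 392 for Prkdc.

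The input levels of the kinases were 0.597, 0.690 and 0.631 RPKM for Atm, 0.159, 0.218 and 0.144 RPKM for Prkdc and 0.145, 0.106 and 0.0690 RPKM for Atr. Ratios of 11.1, 13.9 and 11.6 followed, with overlapping single-library ranges, so the kinases were not separated in ratio. In level Atm lay above the others, while the order of Prkdc and Atr depends on the length used. All 8 ratios in this role, from 10.2 to 13.9, lay below the listed median. Topbp1, which activates ATR, and Trp53bp1, which directs breaks to end joining, had METTL3-RIP means of 8.36 and 3.41 RPKM. For Trp53bp1, 15.04% of the exon length overlaps a gene on the other strand, and for Rad9b, a subunit of the checkpoint clamp with 1.63 RPKM, 23.2% does.

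Break and crosslink repair had 9 members and the lowest median level in METTL3-RIP of the 7 roles, 1.59 RPKM. Rad54l2 was its highest, at 14.0, 14.95 and 13.2 RPKM in METTL3-RIP against 1.07, 1.03 and 0.885 RPKM in input. Wrnip1, which encodes a partner of the Werner helicase, had 11.2, 13.7 and 8.49 RPKM against 1.15, 0.855 and 0.981 RPKM. Its reads are less certain, as 8.98% of its exon length overlaps a gene on the other strand. Of the 31-base stretches of its transcript, 13.9% also occur in other genes. The METTL3-RIP libraries of Wrnip1 were spread more widely than those of Rad54l2, with CVs of 23.6% and 6.09%. Brca1, which promotes repair by homologous recombination, followed at a mean of 2.94 RPKM with a ratio of 15.2, and Rad54l, a motor protein of the same pathway, had 1.09 RPKM and a ratio of 14.8. For Rad54l, 15.4% of the exon length overlaps a gene on the other strand.

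The Fanconi anaemia genes act together on DNA crosslinks. Of 11 annotated genes whose symbol begins with Fanc, 5 were listed, where 8.68% of all protein-coding genes were. Genes of the pathway with other symbols were not counted here. Fanci, Fancm, Fanca, Fancd2 and Fancc had METTL3-RIP means of 2.62, 1.59, 1.07, 0.858 and 0.430 RPKM. All 5 lay below the median of the listed genes, 3.04 RPKM. Fancd2, which is ubiquitinated together with FANCI at crosslinks, had 1.10, 0.708 and 0.768 RPKM in METTL3-RIP and 0.0662, 0.0315 and 0.103 RPKM in input. Fancc, a subunit of the core complex, had 0.432, 0.396 and 0.462 RPKM in METTL3-RIP and 0.04998, 0.0317 and 0.0517 RPKM in input. The groups did not overlap for either gene. The log2 fold change of Fancc was 0.45 ± 0.05 (SE), the smallest of all members, while its ratio was 9.66, in the same range as that of members at far higher levels such as Parp14 (9.61). Both ratios lie close to the lowest of all listed genes, 9.14. Input of Fancc rested on 6, 4 and 6 reads, and 18.6% of its exon length overlaps a gene on the other strand. That overlap is 15.95% for Fanci, 10.5% for Fanca and 7.07% for Fancm.

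Excision repair and the PARP family gave 6 members. Parp14, an interferon-induced enzyme, had 11.2, 9.75 and 10.05 RPKM in METTL3-RIP against 1.17, 1.21 and 0.847 RPKM in input. Parp10 had 7.39, 8.76 and 6.71 RPKM against 0.507, 0.614 and 0.3498 RPKM, with a ratio of 15.5 against 9.61 for Parp14. The single-library ranges, 10.9 to 25.0 and 8.06 to 13.3, overlapped. The listed Ercc genes were Ercc6, which clears stalled RNA polymerase, Ercc4, a subunit of the nuclease that cuts 5′ of a lesion, Ercc2, a helicase of TFIIH, and Ercc6l2, at METTL3-RIP means of 4.04, 3.44, 2.80 and 1.46 RPKM. Ercc6l2 had 1.44, 1.46 and 1.47 RPKM in METTL3-RIP, the smallest CV of the members at 0.968%, and 0.137, 0.0488 and 0.248 RPKM in input. Its input libraries were spread over more than the METTL3-RIP libraries, and Ercc2 shares 42.4% of its exon length with a gene on the other strand. Of the mismatch repair genes, 0 of 5 Msh genes were listed, near the 8.68% of all protein-coding genes.

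**Figure D3:**
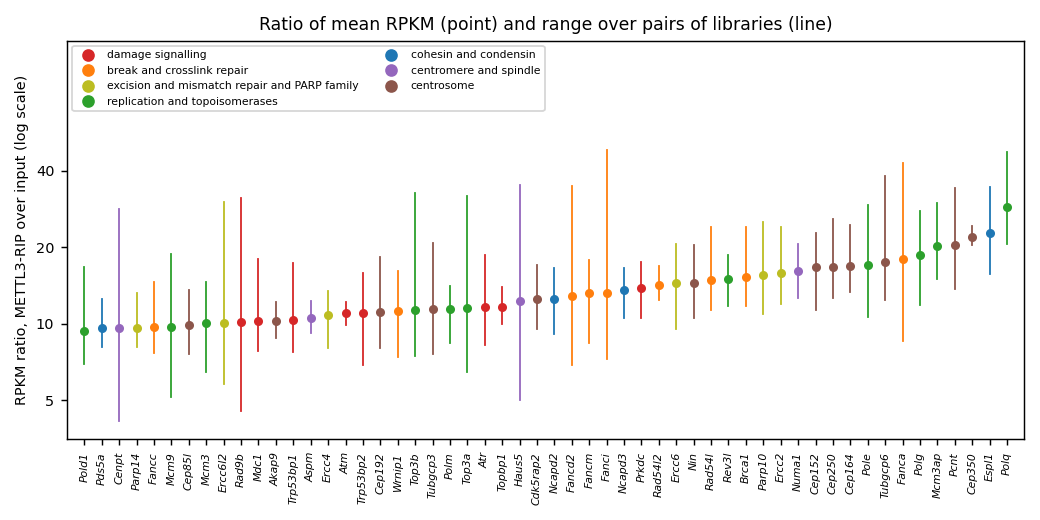
Ratio of mean RPKM in METTL3-RIP over input (points, n = 3 each, log scale) for 54 members in ascending order, with lines from the lowest METTL3-RIP over the highest input value to the highest METTL3-RIP over the lowest input value and Cep170b left out. The points run from 9.35 (Pold1) to 28.9 (Polq), most lines overlap their neighbours, and the line of Cep350 is short.

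Differences between libraries of a group were shared by many members. Summed over the members, replicates 1, 2 and 3 of METTL3-RIP held 563, 566 and 482 RPKM and those of input held 45.3, 39.3 and 31.6 RPKM. Replicate 3 was the lowest METTL3-RIP library in 40 of 55 members (72.7%) and in 59.3% of all listed genes, and input replicate 3 was the lowest input library in 34 members (61.8%) and in 44.5% of listed genes. METTL3-RIP replicate 1 was the highest in 28 members (50.9%) and in 32.3% of listed genes. By role, replicate 1 was the highest in 7 of 11 replication genes (63.6%). Replicate 2 was the highest in 8 of 13 centrosome genes (61.5%), near its share of 53.9% of all listed genes. These are counts over genes of the same libraries and were not tested. Leaving out METTL3-RIP replicate 3 or input replicate 3 left all 55 members past the threshold, with median log2 fold changes of 2.05 and 1.96.

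Outside the name rule, genes of the same pathways were looked up in lists. Of 29 further damage and repair genes, 6 were listed and each passed the threshold on the higher side, with ratios from 10.2 to 18.8 and a median log2 fold change of 2.53: Lig3, Exo1, Ddb1, Slx4, Timeless and Clspn. Of 19 annotated genes among further centrosome genes, 4 were listed and higher, with ratios from 10.04 to 28.0 and a median log2 fold change of 1.39: Alms1, Cntrob, Stil and Rttn. Of 16 annotated genes among further genes of cohesion and mitosis, such as the kinases Plk1, Aurka, Aurkb and Bub1, 0 were listed, and of the symbols of these lists, 1 for the centrosome and 3 for cohesion and mitosis matched no annotated gene. Over all annotated protein-coding genes 8.68% are listed, and 99.9% of all listed genes passed the threshold on the higher side. The count of 0 among 16 genes is near that share of listing. As every listed gene was chosen for being higher, these numbers describe which genes are listed.

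The share of genes listed differed by length. Of the 212 annotated protein-coding genes that match the name rule, 55 were listed (25.9%), beside 1893 of all 21818 (8.68%). When all protein-coding genes were divided into 5 classes of equal size by exon length, the longest class, from 6536 nt, had 41 of 88 genes of the name rule listed (46.6%) against 23.4% of all genes in that class. In the next class the shares were 15% (9 of 60) and 12.1%, and in the middle class 12.8% (5 of 39) and 4.995%. In the 2 shortest classes 0 of 7 and 0 of 18 were listed. The annotated genes were counted whether or not they had reads in these libraries. Listing depends on the test the table was made with and on read depth, which grows with level and with length. Their part in these shares was not tested.

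**Figure D4:**
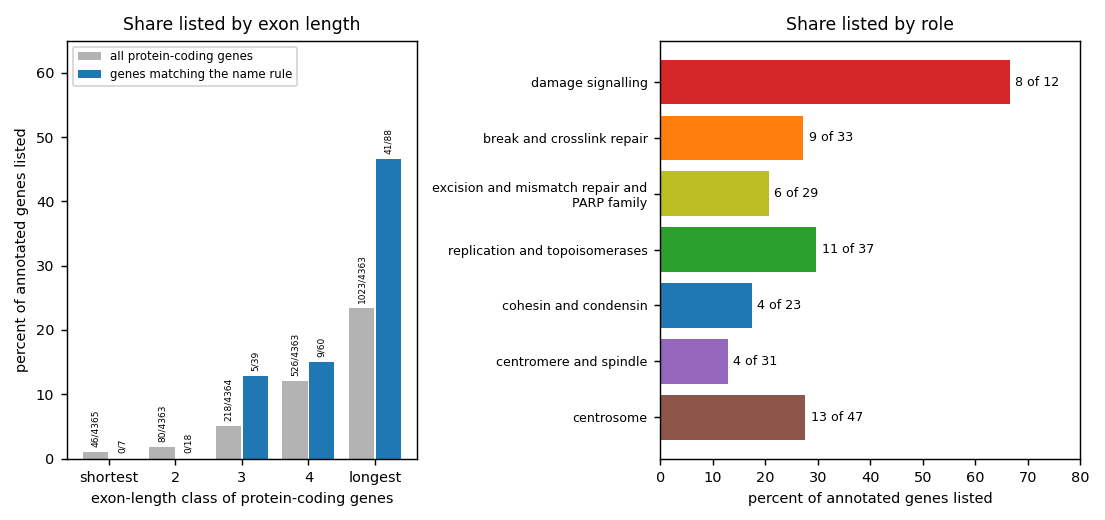
Share of annotated protein-coding genes that are listed (percent, bars from 0), by class of exon length for genes that match the name rule and for all genes (left) and by role for the name-rule genes (right, with the numbers beside the bars). By role the share is 8 of 12 for damage signalling, and by length it rises to 46.6% of the name-rule genes and 23.4% of all genes in the longest class.

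By family, 7 of 36 Cep genes, 5 of 20 polymerase genes, 4 of 9 Ercc genes, 2 of 9 Mcm genes, 2 of 6 Ncap genes, 2 of 5 Tubgcp genes and 2 of 12 Parp genes were listed. In the table were also 1 of 21 Cenp genes, 1 of 8 Haus genes and 0 of 6 Xrcc genes, counts near the share of 8.68% over all protein-coding genes. A gene that is not listed was not analysed here, and its level in either group is not known.

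The representative transcripts of the members, those with the longest coding sequence of each gene, had a median of 6572 nt and 25 exons, against 4718 nt and 16 exons in listed protein-coding genes and 3179 nt and 14 exons in genes of the name rule that were not listed. The median longest internal exon was 651 nt in members, 296 nt in listed genes and 229 nt in unlisted genes of the rule. An internal exon of at least 1000 nt was present in 18 of 55 members (32.7%), in 17.0% of listed and in 4.83% of all protein-coding genes. The longest were those of Rev3l (4153 nt), Aspm (3795 nt), Numa1 (3360 nt), Brca1 (3315 nt) and Polq (2981 nt). The centrosome group held 7 of the 18: Cep250, Akap9, Nin, Cep350, Cep170b, Cep164 and Tubgcp6. Among the longest class of name-rule genes, 18 of 26 with such an exon were listed (69.2%) and 23 of 62 without (37.1%), beside 40.7% and 20.6% of all protein-coding genes of that class.

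Members with an internal exon of at least 1000 nt had a median ratio of 15.7, and those without had 11.6. With at least 50 input reads the medians were 15.1 (14 members) and 11.6 (26 members), and over all listed protein-coding genes with that depth they were 14.2 and 11.9. Of the 18 members with such an exon, 5 had a ratio below the median of those without: Parp14 (9.61), Mdc1 (10.2), Akap9 (10.3), Trp53bp1 (10.3) and Aspm (10.5). These are descriptions over genes that share the same 6 libraries. The motif density, counted as GGACN with any last base but G, on the sense strand, did not set the members above the listed genes, at a median of 3.49 sites per kb against 4.17, and was 3.52 in all protein-coding genes. It ran from 1.72 sites per kb in Fanci and Aspm to 8.91 sites per kb in Parp10.

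**Figure D5:**
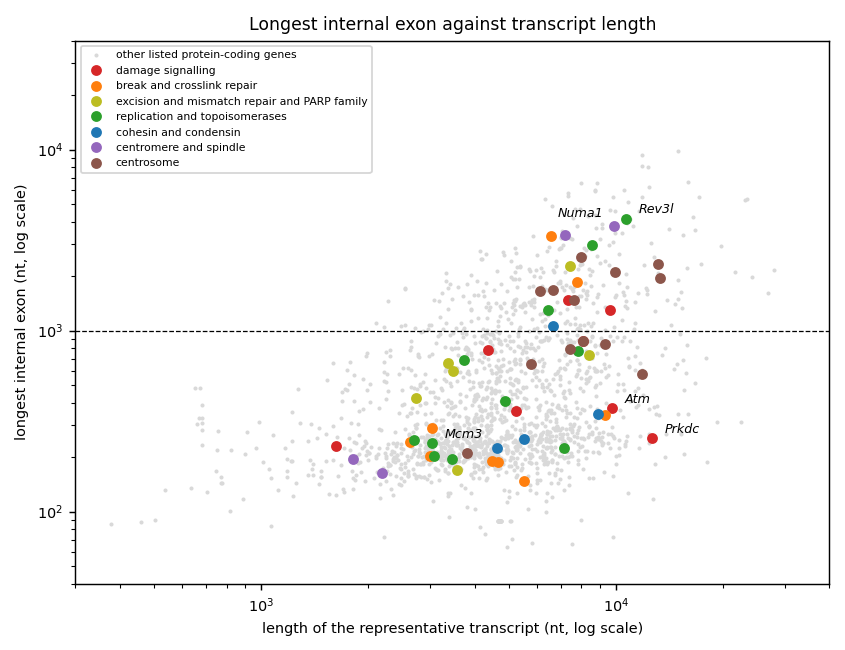
Longest internal exon (nt, log scale) against length of the representative transcript (nt, log scale) for listed protein-coding genes that have an internal exon, with members coloured by role and a dashed line at 1000 nt. Of the members, 18 lie above the line, with Rev3l at 4153 nt the highest, while Prkdc and Atm are long transcripts below it.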

How the data were processed

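The authors trimmed reads and mapped them to GRCm38. The submitters' processing notes name Trimmomatic 0.36, STAR 2.5.3a, bedtools 2.25.0, deepTools 2.4.1 and HOMER 4.10. Libraries were stranded, poly(A)-selected and paired-end. The counter, annotation and use of strand in counting are not given in the sources used here. The authors deposited 1 table of gene values per library, without a stated unit. It was inferred as RPKM: with GENCODE M21 exon lengths, the deposited values were whole multiples of 1 read (within 0.01 reads) in all libraries for 2144 of 2551 genes. For 508 genes, among them 15 members, the shortest length that gave whole reads was used. The table also holds the authors' fold change and p-value, which were not used, and holds only genes with a higher value in METTL3-RIP. Recovered library totals were 9401509 to 11809744 reads in METTL3-RIP and 14710607 to 15992386 in input. Members had medians of 335 to 348 reads in METTL3-RIP libraries and 28 to 46 in input libraries, so input limits the precision of ratios.

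Libraries were grouped by title. METTL3-RIP and input were compared on log2(RPKM + 1) with limma 3.58.1 (trend, two-sided) in R 4.3.3, adjusted by Benjamini-Hochberg over all 2652 genes, with a threshold of 0.05 and no filter. An exact permutation test of 3 against 3 libraries cannot give a two-sided p below 0.1, and none was used for single genes. The fit was tested on simulated data. Same-numbered libraries were not taken as pairs: the labels do not tie them, and their deviations from the group means correlated at -0.02, -0.02 and 0.08 (Pearson, over 2652 genes). Genes were named by rule: in each role, the 2 members with the highest and the 1 with the lowest METTL3-RIP mean, and the 3 largest and 3 smallest log2 fold changes; other members were named where a family is given in full or where their values stood out. Members, lists and roles were chosen with earlier results of these data known. Some items of the lists are not reported here. Exons, lengths and overlaps came from GENCODE M21, and a member was called uncertain where over 5% of its exons or of its 31-mers are shared with other genes (16 members). The uncertain members are Atr, Cep250, Cep85l, Ercc2, Fanca, Fancc, Fanci, Fancm, Haus5, Mcm9, Polg, Rad54l, Rad9b, Trp53bp1, Tubgcp6 and Wrnip1. Alternatives were other pseudocounts, a filter, median centring, a replicate block, no trend, voom on recovered reads, and leaving out each library.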

Additional observations from a re-analysis of the deposited data

How the results depend on the processing

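The 26 results were recomputed under each alternative, except that Cep170b, Fancc and Fancd2 did not pass the filter at 0.5 RPKM, giving 335 values. Of these, 321 kept direction and call, or shifted by under 1 replicate SD or, for counts, by under 1.5 times. The members' median log2 fold change, 1.98, moved to 3.29 with a pseudocount of 0.1, to 0.85 with a pseudocount of 5, to 0.22 with libraries centred on their median and to 3.64 with voom on recovered reads, where no pseudocount in RPKM enters. With centring, 2163 listed genes passed the threshold, 1044 higher and 1119 lower, and 42 members, 28 higher and 14 lower. Centring also reversed Atr (-0.74), Cenpt (-0.58), Cep170b (-1.03), Ercc6l2 (-0.65), Fancc (-1.31), Fancd2 (-0.96) and Top3b (-0.34), and Espl1 lost its call at 0.18 (limma adjusted p = 0.0753). By construction it sets a gene against the typical listed gene, on a scale where low genes have small differences. All 55 members passed the threshold on the higher side under the other settings, except that the filter left 52 to be tested, and all 52 passed. Leaving out each library in turn gave 2629 to 2644 listed genes and 55 members past the threshold, with medians from 1.96 to 2.05. With a replicate block, 2643 listed genes and 55 members passed and the median stayed at 1.98, and it changed no call of a member. Depth limits the ratios of members with few input reads, such as Cep170b, Fancc and Fanca.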

Other observations

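Recovered read numbers were even more often in input than in METTL3-RIP. Over genes with 5 to 50 reads, 74.3% to 77.2% of the read numbers were even in the input libraries and 59.5% to 64.1% in the METTL3-RIP libraries. Among the members with reads in a library, 54 or 55 of them and without a limit on read numbers, the shares were 75.9% to 87.3% in input and 45.5% to 52.7% in METTL3-RIP.

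The members held 0.436% to 0.507% of all reads in the METTL3-RIP libraries, and 0.0280% to 0.0391% in the input libraries. Of the reads on listed genes they held 3.27% to 3.48% in METTL3-RIP and 3.43% to 3.71% in input.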
